A study of Mus musculus with 6 samples.

Results

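The 8 genes examined encode YAP (*Yap1*), TAZ (*Wwtr1*), the 4 TEAD transcription factors (*Tead1*, *Tead2*, *Tead3* and *Tead4*) and 2 Vestigial-like cofactors (*Vgll3* and *Vgll4*). They were taken by symbol from the 55401 genes counted in subcutaneous white adipose tissue (scWAT), with earlier results of these data known. All 8 of 8 were among the 16807 genes with enough counts to be tested. Total RNA of scWAT was sequenced in 2 groups of 3 male mice, all 8 weeks old and kept at room temperature. YT-FF mice carry floxed alleles of both *Yap* and *Taz* without Cre recombinase, and YT-AKO mice, labelled Yapfl/fl/Tazfl/fl;AdipoqCre, carry them with Cre. The sample labels call the control genotype WT, whereas the study's methods give YT-FF, so both groups are taken here to carry the floxed alleles. Cre under the *Adipoq* promoter is active in mature adipocytes, and the vascular, stromal, immune and nerve cells of the depot are expected to keep intact alleles. The measurements compared *Yap*/*Taz* deletion in adipocytes with its control in the whole tissue.

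YAP and TAZ are transcriptional coactivators at the end of the Hippo pathway. When the kinases of the pathway phosphorylate them, they are held in the cytoplasm or degraded, and otherwise they enter the nucleus. They do not bind DNA themselves, and reach their target genes mainly through the TEAD factors, which recognise a short DNA element. VGLL4 competes with YAP and TAZ for TEAD and restrains target genes, and VGLL3 is a TEAD cofactor linked to fat depots and fibroblasts. In fat, TAZ is known to hold back the adipogenic nuclear receptor PPARγ.

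The promoters of the 2 targeted genes are shown first, since the comparison turns on these genes. The sequences are the 250 bases upstream of a transcription start in RefSeq (GRCm38.p6, the assembly of mm10), written 5′ to 3′ on the strand of the gene. Capitals mark CATTCC or its reverse complement GGAATG, the core of the element that TEAD factors recognise. The *Yap1* window lies at chr9:8004597-8004846 on the minus strand, holds 76.4% G and C (median over all windows, 52.4%), and has the element 141 bases upstream of the start.
Yap1: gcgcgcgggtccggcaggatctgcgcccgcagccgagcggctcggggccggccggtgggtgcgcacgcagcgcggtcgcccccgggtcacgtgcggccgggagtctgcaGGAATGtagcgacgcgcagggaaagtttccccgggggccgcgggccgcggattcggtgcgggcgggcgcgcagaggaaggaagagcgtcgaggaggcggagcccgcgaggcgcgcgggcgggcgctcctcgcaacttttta
The first of 2 *Wwtr1* windows lies at chr3:57575911-57576160 on the minus strand, holds 61.6% G and C, and has the element 136 bases upstream of the start.
Wwtr1: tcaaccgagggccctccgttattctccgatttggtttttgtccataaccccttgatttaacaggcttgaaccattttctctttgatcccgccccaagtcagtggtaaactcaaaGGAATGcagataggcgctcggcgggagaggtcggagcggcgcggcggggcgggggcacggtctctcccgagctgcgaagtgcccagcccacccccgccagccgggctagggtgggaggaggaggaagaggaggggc

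Of the 8 genes, 6 were found in the promoter table, and *Tead1* and *Tead4* were not. The element, searched on both strands, stood in at least 1 window of 5 of these 6 genes and in 7 of their 9 windows (77.8%). Over all genes, 3880 of 27025 (14.4%) had it in at least 1 window, and 4153 of 32851 windows of the same length held it (12.6%). The 2 *Wwtr1* windows overlap and hold the same single element, which is counted in both. *Tead2* was the gene without it. For each of the 5 genes, the 26 bases around the element of its first window are given next, turned so that each reads GGAATG in capitals.
Yap1 (chr9:8004722-8004747): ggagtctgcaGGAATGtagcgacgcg
Wwtr1 (chr3:57576031-57576056): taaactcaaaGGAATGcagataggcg
Tead3 (chr17:28350972-28350997): cgacgagcgaGGAATGgggtgcgcgg
Vgll3 (chr16:65815116-65815141): cagggtagccGGAATGtggggaggcg
Vgll4 (chr6:114969270-114969295): agtggggtggGGAATGctgagaaatg
In *Vgll3* GGAATG lies on the strand opposite to the gene, whose own strand reads CATTCC, and a second *Tead3* window holds 2 more elements. These matches describe letters in the windows, and binding was not measured in these libraries.

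Libraries held from 17740987 to 21838493 counted fragments, and the numbers of genes with a count ran from 20501 to 24576. YT-AKO 2 stood apart: its log2 levels correlated at Pearson's r of 0.934 and 0.937 with YT-AKO 1 and 3, which reached 0.972 with each other, and the YT-FF libraries reached 0.977 to 0.985. Fold changes also ran with exon length. Over tested genes, none of which is a replicate, the Spearman rank correlation of log2 fold change with exon length was -0.376, and -0.321 without YT-AKO 2. Results that rest on YT-AKO 2 or on gene length are therefore given in both forms. Levels are fragments per kilobase of summed exon, scaled to the TMM-adjusted library size (FPKM), and fold changes are those of edgeR's quasi-likelihood test on the counts, with Benjamini-Hochberg adjustment over the 16807 genes. A gene is said to have risen or fallen where the adjusted p was under 0.05.

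The targeted genes were examined first. *Yap1* was lower and *Wwtr1* higher in the YT-AKO-labelled libraries. Counts summed over all exons of a gene do not test whether the floxed exons were lost, so neither direction tests the label. By immunoblot, the paper reports less YAP and TAZ protein in scWAT of YT-AKO mice, which is a measure of protein and not of mRNA. Directions below follow the labels.

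*Yap1* (ENSMUSG00000053110, chromosome 9, 7931999 to 8004596 of mm10, minus strand, 9257 bases of summed exon) had FPKM of 7.47, 6.17 and 7.20 in YT-FF 1 to 3 and of 4.08, 3.13 and 3.38 in the YT-AKO-labelled libraries 1 to 3. The YT-AKO-labelled values were all below the lowest YT-FF value. Its mean level fell from 6.95 ± 0.685 to 3.53 ± 0.489 FPKM (SD, n = 3), with a log2 fold change of -0.98 ± 0.167 (SE, 95% confidence interval -1.36 to -0.59, edgeR, adjusted p = 0.0179). The exons of *Yap1* overlap those of the predicted gene *Gm20416* over 1.25% of their length, and fragments there were not counted. Of its exon bases, 16.1% are coding, so a deletion of a coding exon need not remove most of the sequence that was counted.

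*Wwtr1* (ENSMUSG00000027803, chromosome 3, 57455649 to 57575910, minus strand, 4779 bases of exon) had FPKM of 16.2, 15.9 and 20.7 in YT-FF and of 36.7, 27.8 and 33.6 in the YT-AKO-labelled libraries. The groups did not overlap, and the order was the reverse of that of *Yap1*. The mean level rose from 17.6 ± 2.67 to 32.7 ± 4.51 FPKM (SD, n = 3), with a log2 fold change of 0.89 ± 0.182 (SE, 95% confidence interval 0.47 to 1.32, edgeR, adjusted p = 0.0220). The counts are sums over all exons of a gene, so they do not show whether the floxed exons of *Yap1* or *Wwtr1* were lost in adipocytes, and a transcript without those exons is still counted. In bulk tissue, fewer cells of a type and less RNA per cell cannot be told apart.

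Both calls depended on the control libraries, as calls over all genes did. Over all tested genes, edgeR called 0 without YT-FF 1 and 2 without YT-FF 2. The unadjusted p values of *Yap1* and *Wwtr1* were 0.0031 and 0.0098 without YT-FF 1, and 0.0012 and 0.0099 without YT-FF 2 (edgeR). Without YT-FF 1, the 2 genes had edgeR adjusted p values of 0.110 (*Yap1*) and 0.120 (*Wwtr1*), with 0.111 and 0.123 when YT-FF 2 was omitted instead, while the log2 fold changes stayed between -1.08 and -0.90 and between 0.81 and 1.03 with any 1 library left out. Scaling by library totals alone shifted the median log2 fold change of all tested genes from -0.02 to -0.34, and *Wwtr1* then stood at 0.59 (edgeR, adjusted p = 0.0799), which is 0.93 above that median. In TPM, a per-length scale on which every library has the same total, *Wwtr1* had means of 66.5 ± 6.93 in YT-FF and 80.8 ± 28.3 in the YT-AKO-labelled libraries (SD, n = 3), with YT-AKO 2, at 48.7, below all YT-FF libraries. With a correction for exon length, the log2 fold change was -0.58 for *Yap1* (edgeR, adjusted p = 0.0450) and 1.01 for *Wwtr1* (edgeR, adjusted p = 0.0195).

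**Figure D1:**
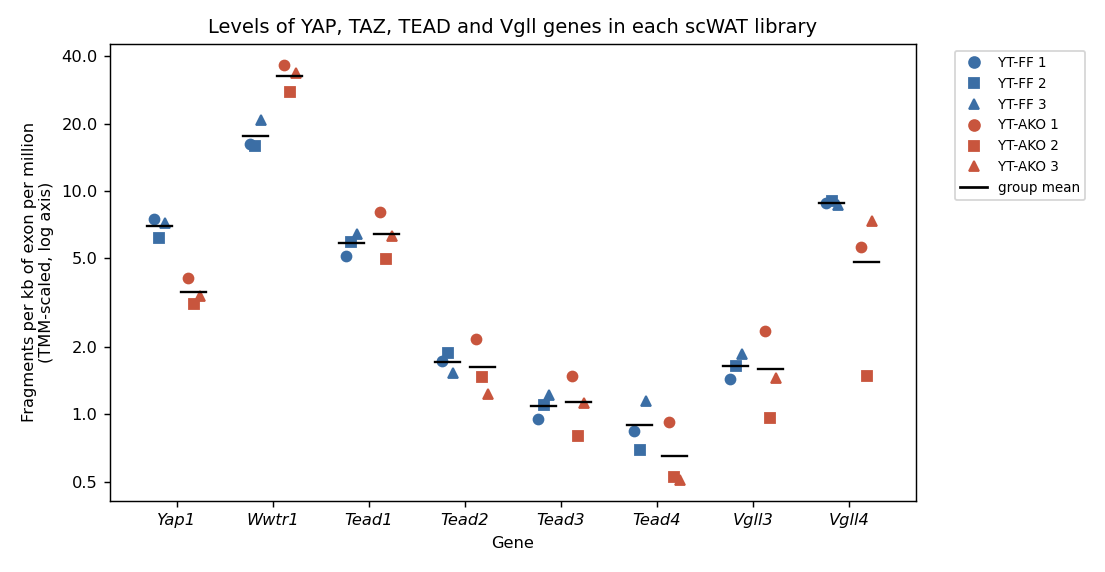
Level of each of the 8 genes in FPKM (TMM-scaled, log axis) in the 3 YT-FF libraries (blue) and the 3 YT-AKO-labelled libraries (red), with circles, squares and triangles for libraries 1, 2 and 3 and bars for group means. The groups are apart for *Yap1* and *Vgll4* (lower in the YT-AKO-labelled libraries) and for *Wwtr1* (higher there), and overlap for *Tead1* to *Tead4* and *Vgll3*.

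The 2 coactivators were then set against each other within each library, where the scaling between libraries cancels. TAZ mRNA exceeded YAP mRNA in all 6 libraries. The level of *Wwtr1* was 2.17, 2.58 and 2.87 times that of *Yap1* as the lowest, median and highest of the YT-FF libraries, and 8.87, 9.0 and 9.95 times in the YT-AKO-labelled libraries. The log2 ratio of *Yap1* to *Wwtr1* was -1.12, -1.37 and -1.52 in YT-FF and -3.17, -3.15 and -3.31 in the YT-AKO-labelled libraries. Its mean went from -1.33 ± 0.203 to -3.21 ± 0.0899 (SD, n = 3; difference -1.88; two-sided exact permutation test, p = 0.1, the smallest that 3 libraries against 3 allow; 0.125 after Benjamini-Hochberg adjustment over the 5 within-library quantities compared). The difference between the log2 fold changes of the 2 genes was -1.87 from edgeR, and -1.58 with the correction for exon length. How far *Wwtr1* exceeded *Yap1* within a library depended on the division by exon length. In CPM, without that division, the mean log2 ratio of *Yap1* to *Wwtr1* was -0.38 in YT-FF and -2.26 in the YT-AKO-labelled libraries.

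Summed over the 2 coactivators, the level was 23.7, 22.1 and 27.9 FPKM in YT-FF and 40.8, 30.9 and 37.0 FPKM in the YT-AKO-labelled libraries. *Wwtr1* made up most of this sum in every library. The mean was 24.5 ± 2.99 and 36.2 ± 4.95 FPKM (SD, n = 3; exact permutation test, p = 0.1, adjusted 0.125), whereas in TPM it was 92.9 ± 6.89 and 89.5 ± 31.2, in the other direction. The ratio is the same on both scales, and the direction of the sum is not.

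None of the 4 TEAD genes was called in the 6 libraries by edgeR, DESeq2 or limma-voom, and edgeR gave none an unadjusted p under 0.05 (lowest 0.258, for *Tead4*). *Tead1*, the most abundant of the 4, had FPKM of 5.14, 5.92 and 6.41 in YT-FF and of 8.02, 4.98 and 6.27 in the YT-AKO-labelled libraries (ENSMUSG00000055320, chromosome 7, 112679318 to 112906807, plus strand, 13570 bases of exon). The groups overlapped, with both the highest and the lowest value among the YT-AKO-labelled libraries. Its log2 fold change was 0.14 ± 0.204 (SE, 95% confidence interval -0.33 to 0.61, edgeR, adjusted p = 0.626).

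*Tead1* is in the decile of the longest tested genes, whose median log2 fold change was -0.52. With the correction for exon length it was called higher, at 0.66 ± 0.166 (SE, edgeR, adjusted p = 0.0414), and at 0.70 without YT-AKO 2 as well (edgeR, adjusted p = 0.0182). Without YT-AKO 1 and with no length correction the value was -0.04, with scaling by library totals -0.16, and in TPM the mean was 22.1 ± 2.03 in YT-FF and 16.0 ± 6.86 in the YT-AKO-labelled libraries. The direction of *Tead1* therefore differed between ways of scaling.

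*Tead2* (ENSMUSG00000030796, chromosome 7, 45215753 to 45233644, plus strand) had FPKM of 1.73, 1.89 and 1.54 in YT-FF and of 2.19, 1.47 and 1.23 in the YT-AKO-labelled libraries. *Tead3* (ENSMUSG00000002249, chromosome 17, 28331671 to 28350817, minus strand) had 0.952, 1.11 and 1.23 FPKM and 1.49, 0.799 and 1.13 FPKM. For both genes the YT-AKO-labelled libraries spread to both sides of the YT-FF libraries. The log2 fold changes were -0.08 for *Tead2* (95% confidence interval -0.69 to 0.54, edgeR, adjusted p = 0.844) and 0.06 for *Tead3* (95% confidence interval -0.58 to 0.70, edgeR, adjusted p = 0.891), and each turned sign in some settings: *Tead2* to 0.04 with the length correction and 0.09 without YT-AKO 3, and *Tead3* to -0.24 with library totals, -0.04 without YT-FF 1 and -0.18 without YT-AKO 1.

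*Tead4* (ENSMUSG00000030353, chromosome 6, 128224288 to 128300823, minus strand) was the least abundant, with counts of 71, 57 and 80 in YT-FF and of 57, 32 and 31 in the YT-AKO-labelled libraries, so counting error alone was 11.2% to 18% of a value. In FPKM these were 0.841, 0.696 and 1.14 against 0.921, 0.525 and 0.509. The groups overlapped through YT-AKO 1. The log2 fold change was -0.45 ± 0.371 (SE, 95% confidence interval -1.31 to 0.41, edgeR, adjusted p = 0.383), and the depth leaves both a fall and a modest rise within that interval. *Tead3* and *Tead4* share some 50-base stretches of exon with each other, over 0.144% and 0.272% of their length.

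Across the family, *Tead1* held 59.3%, 61.6% and 62.1% of the summed TEAD level in YT-FF and 63.6%, 64.1% and 68.6% in the YT-AKO-labelled libraries. Its share was higher in each YT-AKO-labelled library than in any YT-FF library, with means of 61.0 ± 1.48% and 65.4 ± 2.76% (SD, n = 3; exact permutation test, p = 0.1, adjusted 0.125). *Tead2* held 18.2 ± 2.84% and 16.6 ± 2.75%, *Tead3* 11.5 ± 0.445% and 11.5 ± 1.07%, and *Tead4* 9.35 ± 1.95% and 6.54 ± 0.883%.

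The summed TEAD level was 8.66, 9.61 and 10.3 FPKM in YT-FF and 12.6, 7.77 and 9.14 FPKM in the YT-AKO-labelled libraries. The groups overlapped, with means of 9.53 ± 0.837 and 9.84 ± 2.49 FPKM (SD, n = 3; exact permutation test, p = 0.9), and in TPM the means stood in the other order, 36.2 and 24.5. The log2 ratio of summed *Yap1* and *Wwtr1* to summed TEAD was 1.45, 1.20 and 1.43 in YT-FF and 1.69, 1.99 and 2.02 in the YT-AKO-labelled libraries. It was higher in each YT-AKO-labelled library than in any YT-FF library (means 1.36 ± 0.141 and 1.90 ± 0.181, SD, n = 3; exact permutation test, p = 0.1, adjusted 0.125). In CPM, without division by exon length, the difference was 0.27 in place of 0.54 (exact permutation test, p = 0.2).

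**Figure D2:**
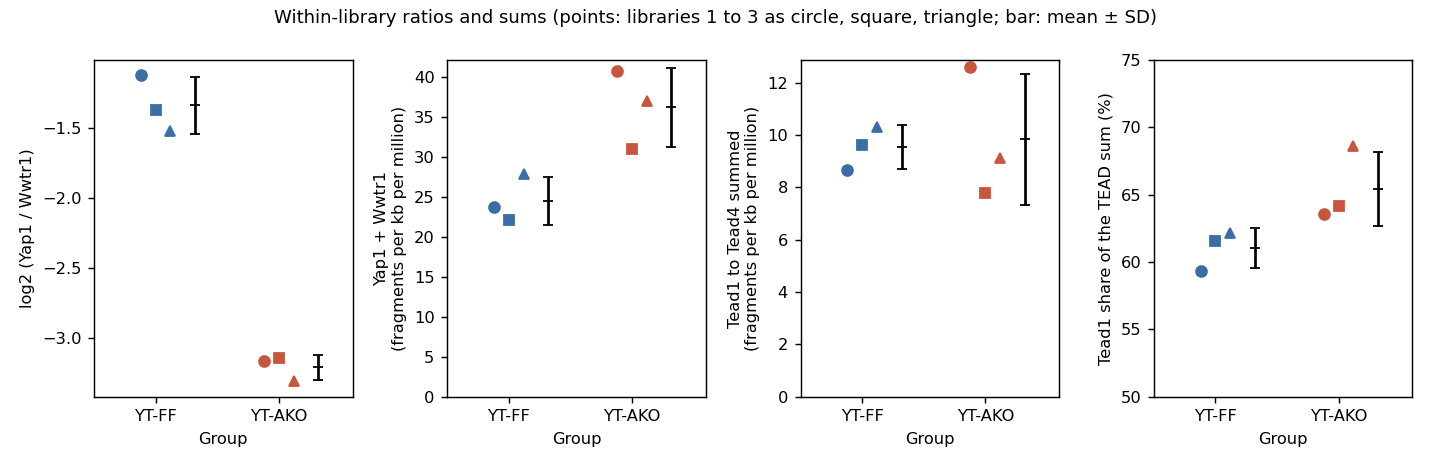
Log2 ratio of *Yap1* to *Wwtr1*, summed level of *Yap1* and *Wwtr1* (FPKM), summed level of *Tead1* to *Tead4* (FPKM) and share of *Tead1* in that sum (%; axis from 50) for each library, with the mean ± SD of each group beside the points. The ratio and the share separate the 3 libraries of each group, the coactivator sum does so in FPKM but not in TPM, and the TEAD sum does not.

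*Vgll4* (ENSMUSG00000030315, chromosome 6, 114860628 to 114969994, minus strand, 5396 bases of exon), the cofactor that competes with YAP and TAZ for TEAD, had FPKM of 8.86, 9.05 and 8.65 in YT-FF and of 5.60, 1.49 and 7.36 in the YT-AKO-labelled libraries. Every YT-AKO-labelled library was below the narrow YT-FF range, and YT-AKO 2 was far below the other two. The mean was 8.85 ± 0.201 and 4.82 ± 3.01 FPKM (SD, n = 3), with a log2 fold change of -0.88 ± 0.477 (SE, 95% confidence interval -1.98 to 0.23, edgeR, adjusted p = 0.202). Without YT-AKO 2 the difference was smaller and passed the threshold, at -0.45 ± 0.140 (SE, edgeR, adjusted p = 0.0413), beside 14.0% of all genes called lower in those 5 libraries and 16.9% called higher. With the length correction *Vgll4* was not called, at -0.75 in 6 libraries (edgeR, adjusted p = 0.251) and at -0.34 without YT-AKO 2 (edgeR, adjusted p = 0.113).

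*Vgll3* (ENSMUSG00000091243, chromosome 16, 65815257 to 65866368, plus strand, 7104 bases of exon) had FPKM of 1.45, 1.65 and 1.87 in YT-FF and of 2.37, 0.963 and 1.46 in the YT-AKO-labelled libraries. The groups overlapped, with YT-AKO 1 the highest and YT-AKO 2 the lowest of the 6 libraries. The log2 fold change was -0.05 ± 0.325 (SE, 95% confidence interval -0.81 to 0.70, edgeR, adjusted p = 0.917), and it was 0.21 without YT-AKO 2 and 0.21 with the length correction, both above 0. The other family members *Vgll1* and *Vgll2* were at most 0.042 and 0.881 FPKM in any library and had too few counts to be tested. The *Vgll2* maximum, 25 counts, was in YT-AKO 1, which also had the highest sum of skeletal muscle markers.

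Over the 8 genes, 1 was called higher, against 12.6% of all tested genes, and 1 lower, against 9.01%. Without overlap between the groups, 1 gene was higher, against 25.7% of all tested genes, and 2 were lower, against 25.8%. The shares of called genes were near the background. DESeq2 also called 1 of the 8 genes higher and 1 lower, against 18.1% and 14.3% of its tested genes, and edgeR with the length correction called 2 higher and 1 lower, against 10.1% and 4.54%. The median log2 fold change was -0.06, beside -0.02 over all tested genes. Ranked among the fold changes of all tested genes, *Yap1* stood at percentile 9.68, *Vgll4* at 11.8, *Tead4* at 28.0, *Tead2* at 47.1, *Vgll3* at 48.4, *Tead3* at 53.8, *Tead1* at 58.1 and *Wwtr1* at 85.1.

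**Figure D3:**
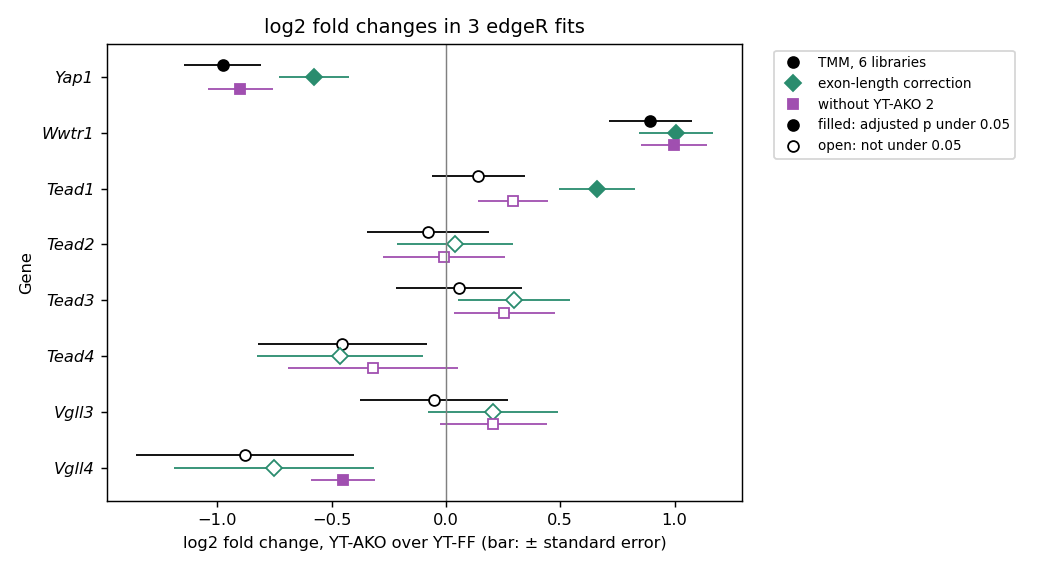
Log2 fold change (YT-AKO-labelled libraries over YT-FF) with its standard error for each of the 8 genes, from edgeR on 6 libraries (circles), with a correction for exon length (diamonds) and without YT-AKO 2 (squares), filled where the adjusted p was under 0.05. *Yap1* and *Wwtr1* were filled in all 3 fits, *Tead1* with the length correction and *Vgll4* without YT-AKO 2.

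Compared with one another within a group, the genes spanned a wide range of levels. In YT-FF the order of mean FPKM was *Wwtr1*, *Vgll4*, *Yap1*, *Tead1*, *Tead2*, *Vgll3*, *Tead3* and *Tead4*, and among neighbours *Yap1* and *Tead1*, *Tead2* and *Vgll3*, and *Tead3* and *Tead4* had overlapping ranges. In the YT-AKO-labelled libraries the order was *Wwtr1*, *Tead1*, *Vgll4*, *Yap1*, *Tead2*, *Vgll3*, *Tead3* and *Tead4*, where *Wwtr1* stood clear of *Tead1* and *Yap1* of *Tead2*, and the other neighbours overlapped. In FPKM, *Yap1* exceeded *Tead1* in 3 of 3 YT-FF libraries and in 0 of 3 YT-AKO-labelled libraries. This order in YT-FF depended on the division by exon length. In counts, *Tead1* exceeded *Yap1* in every library, with 1635, 1828 and 1690 against 1622, 1300 and 1295 in YT-FF. In CPM, the YT-FF means were 84.1 for *Wwtr1*, 79.0 for *Tead1*, 64.3 for *Yap1* and 47.8 for *Vgll4*. Among all tested genes, *Wwtr1* was at percentile 84.2 of FPKM in YT-FF and *Tead4* at 19.4.

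Because long genes tended to be lower in the YT-AKO-labelled libraries, each gene was set beside genes of its own exon length. The median log2 fold change went from 0.56 in the decile of shortest genes to -0.52 in that of the longest. *Yap1*, in decile 9 with a median of -0.37, was lower than that median, and *Wwtr1*, in decile 7 with a median of -0.13, was higher. *Vgll4*, also in decile 7, was lower than its median, and *Tead1*, in decile 10, was higher than its own. What produced the length trend was not tested.

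**Figure D4:**
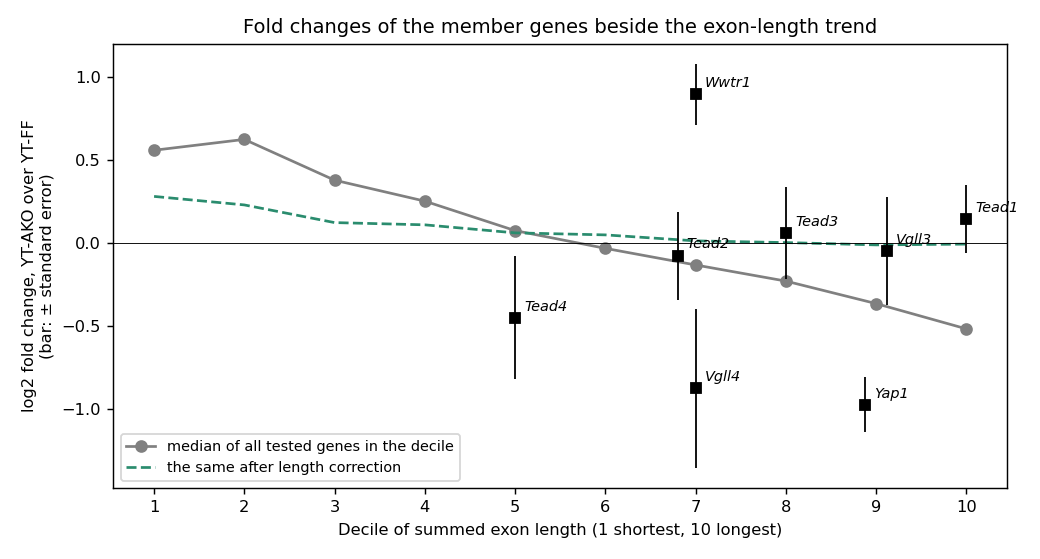
Median log2 fold change (YT-AKO-labelled libraries over YT-FF) of all tested genes by decile of summed exon length (grey), the same after length correction (dashed green), and the 8 genes with their standard errors (black squares, shifted slightly sideways where they would overlap). The grey line goes from 0.56 to -0.52, with *Wwtr1*, *Tead1*, *Tead2*, *Tead3* and *Vgll3* above it and *Yap1*, *Vgll4* and *Tead4* below it.

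The surrounding pathway was examined through lists that were written with earlier results of these data known. Of 35 genes of the Hippo cascade, which holds the kinases, adaptors and membrane proteins that control YAP and TAZ, 34 were tested, 0 were called higher and 11 lower (edgeR; 12.6% and 9.01% of all tested genes), with a median log2 fold change of -0.54. At an unadjusted p under 0.05, edgeR had 0 higher and 15 lower, and DESeq2 called 0 higher and 12 lower after adjustment. *Amotl2*, an angiomotin that binds YAP and holds it at junctions, fell most: it had 27.1, 43.7 and 50.5 FPKM in YT-FF and 12.6, 8.13 and 17.1 FPKM in the YT-AKO-labelled libraries. Its groups did not overlap, and the log2 fold change was -1.68 ± 0.328 (SE, edgeR, adjusted p = 0.0205). *Tnik*, a kinase of the MAP4K-related group, followed with -1.0 ± 0.242 (SE, edgeR, adjusted p = 0.0298), from a mean of 1.01 ± 0.268 to 0.504 ± 0.0468 FPKM (SD, n = 3).

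The list's calls depended on length and on single libraries. With the length correction, 5 Hippo genes were called lower and the median was -0.27. Over all tested genes, that fit called 10.1% higher and 4.54% lower. Without YT-AKO 2, 1 was called higher and 13 lower with a median of -0.37, beside 16.9% and 14% of all genes. With the length correction as well, 0 were called higher (2 at an unadjusted p under 0.05) and 6 lower with a median of -0.092 (edgeR). Over all genes, that fit called 2609 higher and 1469 lower of 17350. Under the length correction in 6 libraries, *Amotl2* stood at -1.47 (edgeR, adjusted p = 0.0266) and *Tnik* at -0.33 (edgeR, adjusted p = 0.355). Without YT-FF 1 or without YT-FF 2, edgeR called 0 genes of the list (11 and 12 lower at an unadjusted p under 0.05), without YT-FF 3 it called 4 and without YT-AKO 3 it called 5; *Amotl2* had adjusted p values of 0.110, 0.112 and 0.0558 without YT-FF 1, 2 and 3 (edgeR), and *Tnik* of 0.133, 0.131 and 0.0671 without YT-FF 1, YT-FF 2 and YT-AKO 3 (edgeR). Over all genes, no call was made without YT-FF 1 (4665 genes at an unadjusted p under 0.05) and 2 were made without YT-FF 2 (4507 genes), both by edgeR.

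Of 24 genes commonly used as YAP/TAZ targets, 22 were tested, 0 were called higher and 5 lower (edgeR; 1 and 8 at an unadjusted p under 0.05; DESeq2 called 1 and 6), with a median log2 fold change of -0.47. Over all tested genes, edgeR called 12.6% higher and 9.01% lower, and DESeq2 18.1% and 14.3%. The 5 were *Amotl2*, *Ptpn14*, *Crim1*, *Asap1* and *Rbms3*, of which the last 3 are named because the count is small, after their values were seen. *Ptpn14*, a phosphatase that restrains YAP, had 6.37, 5.80 and 6.36 FPKM in YT-FF and 2.79, 2.75 and 3.95 FPKM in the YT-AKO-labelled libraries. Its log2 fold change was -0.97 ± 0.184 (SE, edgeR, adjusted p = 0.0203), and -0.43 with the length correction (edgeR, adjusted p = 0.133). *Amotl2* and *Ptpn14* are among the 4 genes on both lists, and both also restrain YAP.

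With the length correction 2 target genes were called lower and the median was -0.19. Without YT-AKO 2 the median was -0.27 with 5 called lower, and with the length correction as well it was -0.061 with 4 called lower (edgeR). Over all genes, edgeR called 4.54% lower with the length correction, 14% without YT-AKO 2, and 1469 of 17350 with both changes. Leaving out YT-FF 1, YT-FF 2 or YT-FF 3 left 0 called by edgeR, with 7, 6 and 5 lower at an unadjusted p under 0.05, and leaving out YT-AKO 3 left 3; *Ptpn14* then had adjusted p values of 0.111, 0.111, 0.0532 and 0.0374 (edgeR). The usual reporters *Ccn1* and *Ccn2*, named here after their values were seen, had overlapping groups: *Ccn1* was at 4.26, 20.7 and 17.4 FPKM in YT-FF and 11.7, 5.38 and 7.99 FPKM in the YT-AKO-labelled libraries, and *Ccn2* at 2.07, 1.67 and 8.89 FPKM and 8.15, 4.93 and 2.71 FPKM. Neither was called, with log2 fold changes of -0.75 (edgeR, adjusted p = 0.321) and 0.33 (edgeR, adjusted p = 0.736).

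A further list, called other partners here, held 15 transcriptional regulators linked to YAP or TAZ, not all of them bound by these. Of the 15, 11 were tested, and 1 was called higher and 1 lower (edgeR, beside 12.6% and 9.01% of all tested genes). Their median log2 fold change was -0.28. The counts are near that background. *Cebpb*, which encodes the adipogenic factor C/EBPβ, had 57.8, 70.9 and 103 FPKM in YT-FF and 261, 367 and 216 FPKM in the YT-AKO-labelled libraries. It rose, with no overlap, by a log2 fold change of 1.86 ± 0.289 (SE, edgeR, adjusted p = 0.0177), and by 1.46 with the length correction (edgeR, adjusted p = 0.0195). *Runx3*, a RUNX factor of lymphoid cells and other tissues, fell from 5.99 ± 1.15 to 3.43 ± 0.212 FPKM (SD, n = 3; log2 fold change -0.80 ± 0.191, SE, edgeR, adjusted p = 0.0287; -0.67 with the length correction, adjusted p = 0.0465). Without YT-FF 1 and without YT-FF 2, the adjusted p was 0.110 and 0.111 for *Cebpb* and 0.133 and 0.132 for *Runx3* (edgeR), and *Runx3* had 0.0608 without YT-AKO 3. With YT-AKO 2 left out, 4 genes of this list were called, with YT-AKO 3 left out 1, and with YT-FF 1 or YT-FF 2 left out 0 (edgeR; 1 higher and 1 lower at an unadjusted p under 0.05 in each).

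**Figure D5:**
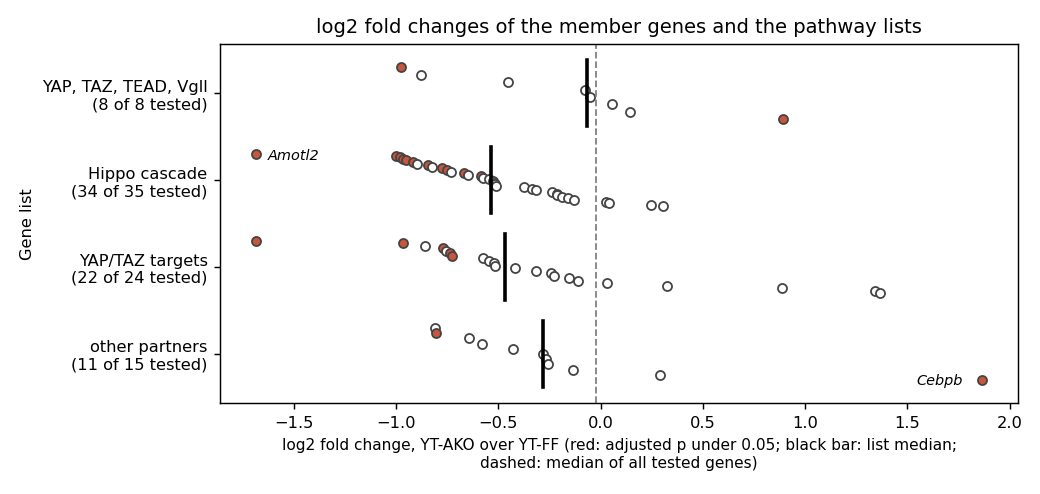
Log2 fold change (YT-AKO-labelled libraries over YT-FF) of each tested gene among the 8 genes, the Hippo cascade, the YAP/TAZ targets and the other partners, with red points for an adjusted p under 0.05, black bars for list medians and a dashed line at the median of all tested genes. The Hippo cascade and the targets have medians of -0.54 and -0.47 and red points below 0 alone, and *Amotl2* and *Cebpb* lie at the ends.

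Markers of the cells in the depot were measured beside these results. Summed over 8 adipocyte markers, the level was 3658 to 5332 FPKM in YT-FF and 5764 to 9642 FPKM in the YT-AKO-labelled libraries, with the highest in YT-AKO 2. *Fabp4*, singled out after its values were seen, made up 907 to 1604 FPKM and 2040 to 4506 FPKM of these sums. *Adipoq*, *Plin1*, *Cidec*, *Lep* and *Pparg* overlapped between the groups and were not called. *Fabp4*, *Lipe* and *Retn* were higher without overlap, as were 25.7% of all tested genes. Of these 8, 2 were called higher (*Fabp4* and *Lipe*), beside 12.6% of all tested genes called higher and 9.01% lower (edgeR). With the length correction 1 was called higher, beside 10.1% and 4.54%. With at least 10 counts in every library, or without YT-AKO 3, 0 were called (3 at an unadjusted p under 0.05 in each, edgeR). Without YT-FF 1, 2 or 3, 0 were called (2, 2 and 4 at an unadjusted p under 0.05). For 8 progenitor and fibroblast markers the sums were 510 to 641 FPKM and 583 to 935 FPKM, with *Pi16* and *Lum* called higher and *Dpp4* lower. With the length correction, 3 of these 8 were called higher and 1 lower (edgeR). Without YT-AKO 2, 5 of these 8 were called higher, and 6 with the length correction as well, with 1 lower in each (edgeR). Over all genes, edgeR called 16.9% higher and 14% lower without YT-AKO 2. With the length correction as well, it called 2609 higher and 1469 lower of 17350. Progenitors and fibroblasts express YAP, TAZ and TEAD and are outside the reach of *Adipoq*-driven Cre. How far their share of the tissue moved *Wwtr1* was not tested.

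Other cell types also differed between libraries. The 6 macrophage markers summed to 167 to 178 FPKM in YT-FF and 327 to 544 FPKM in the YT-AKO-labelled libraries, with *C1qa* called higher. *C1qa* carried the difference, at 84.4 to 98.1 FPKM and 233 to 461 FPKM, and the other 5, which all overlapped between the groups and were not called, summed to 69.0 to 93.5 FPKM and 82.6 to 114 FPKM. The 6 skeletal muscle markers summed to 52.1 to 178 FPKM and 134 to 1428 FPKM, with *Acta1* called higher and the highest sum in YT-AKO 1, the library with the highest *Wwtr1*, *Tead1*, *Tead2*, *Tead3* and *Vgll3*, and also with the highest progenitor and fibroblast sum. *Ckm*, *Mylpf*, *Tnnt3*, *Myh4* and *Mb* overlapped between the groups and were not called. In YT-AKO 3 each of these was below every YT-FF library, while *Acta1* was at 129 FPKM there. With the length correction 0 of the 6 skeletal muscle markers were called (1 higher at an unadjusted p under 0.05, edgeR), and 1 higher when YT-AKO 2 was left out too. The 6 endothelial markers summed to 134 to 166 FPKM and 153 to 388 FPKM with *Kdr* called lower. Of the highest of these sums, *Cldn5* in YT-AKO 2 made up 320 FPKM, and the other 5 summed to 95.7 to 98.7 FPKM and 67.3 to 87.2 FPKM. *C1qa* and *Cldn5* were chosen to be left out of these sums after the values were seen. With the length correction 0 of the 6 endothelial markers were called (1 higher and 1 lower at an unadjusted p under 0.05, edgeR). The 6 smooth muscle and pericyte markers summed to 78.0 to 91.7 FPKM and 72.8 to 87.8 FPKM, and the 5 Schwann cell markers to 76.1 to 97.4 FPKM and 58.5 to 91.0 FPKM, with 0 of these 11 called in 6 libraries by edgeR (0 at an unadjusted p under 0.05), DESeq2 or limma-voom (1 of each list lower at an unadjusted p under 0.05 in both). Without YT-AKO 2, edgeR called 1 smooth muscle and 2 Schwann cell markers lower, beside 14% of all genes called lower. Of 5 epithelial markers 1 was tested, the sums were at most 1.79 FPKM, and *Krt5* was at 0 in all 6 libraries. The part of these cells in the values of the 8 genes was not tested.

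Over the 6 libraries, the genes whose log2 CPM followed that of *Yap1* most closely were *Dclk1* (Pearson's r = 0.998), *Gm31641* (0.998) and *Adarb1* (0.998). Those closest to *Wwtr1* were *Sdha* (0.998), *Mif4gd* (0.996) and *Pak1ip1* (0.996). *Sdha* encodes a subunit of succinate dehydrogenase, and its mean was 141 FPKM in YT-FF and 241 FPKM in the YT-AKO-labelled libraries. These are descriptions over 6 libraries that share the group difference, chosen as the highest of 16807 correlations.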

How the data were processed

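RNA-seq of scWAT covered 3 YT-FF and 3 YT-AKO mice, with groups from the labelled genotype. The authors mapped paired-end reads to mm10 with HISAT2 and counted them with featureCounts v2.0.1 on GENCODE vM25 exons, and they deposited each library as a column of raw fragment counts. Per the file headers, counting was unstranded and kept neither multimapping fragments nor those overlapping several genes. Symbols were matched for 55141 of 55401 gene identifiers. Genes with overlapping exons therefore lose counts.

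Counts were tested in R 4.3.3 with edgeR 4.0.16 (TMM, filterByExpr with minimum count 10 and minimum total 15, quasi-likelihood test, Benjamini-Hochberg adjustment over 16807 genes; biological coefficient of variation 0.288). Replicates are mice by the study's methods. FPKM used the deposited exon lengths and TMM-scaled totals. The study's own tool was DESeq2. Within-library quantities were compared by two-sided exact permutation tests. Intervals cover 95%, and counting error covers sampling alone, since fragments carry no molecular identifiers. Tests were checked on simulated counts.

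Alternatives were DESeq2 1.42.0, limma-voom (limma 3.58.1), scaling by upper quartile or by library totals only, other count filters (none, or 10 counts in all libraries), robust dispersion, a replicate block, a per-library spline on log exon length (6 degrees of freedom), combinations of these, TPM, CPM and each library left out. The 8 genes and all lists were chosen with earlier results of these data known. Genes named are the 8 genes; from each pathway list, the 2 largest rises and 2 largest falls at an adjusted p under 0.05, or the 2 of highest level where none passed; the 3 tested genes most correlated with *Yap1* and with *Wwtr1*; and marker genes as examples. One marker list is not reported here. Promoters are from RefSeq (GRCm38.p6), and exon annotation from GENCODE vM21.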

Additional observations from a re-analysis of the deposited data

How the results depend on the processing

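*Yap1* stayed lower and *Wwtr1* higher in the YT-AKO-labelled libraries under each of 17 alternatives, and *Tead4* and *Vgll4* stayed below 0. The calls did not: with the replicate number as a block, edgeR's adjusted p was 0.0584 for *Yap1* (log2 fold change -0.98) and 0.0618 for *Wwtr1* (0.89), and with block and length correction 0.106 (-0.57) and 0.0582 (1.02); library totals alone gave *Wwtr1* 0.59. Leaving out 1 library at a time, log2 fold changes ran from -1.08 to -0.90 for *Yap1*, 0.81 to 1.03 for *Wwtr1*, -0.041 to 0.29 for *Tead1*, -0.34 to 0.093 for *Tead2*, -0.18 to 0.26 for *Tead3*, -0.78 (without YT-AKO 1) to -0.23 (without YT-FF 3) for *Tead4*, -0.44 to 0.21 for *Vgll3* and -1.32 to -0.45 for *Vgll4*. Directions turned to -0.16 for *Tead1* and -0.24 for *Tead3* with library totals, to 0.039 for *Tead2* and 0.21 for *Vgll3* with the length correction, to 0.0095 and 0.15 with length correction and block, and to 0.060 and 0.41 with the length correction leaving out YT-AKO 2. *Tead1* was called at 0.66 with the length correction and at 0.70 leaving out YT-AKO 2 too, and was not called with length correction and block (0.66, edgeR, adjusted p = 0.0973). The cause was not tested.

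The samples share only replicate numbers. Deviations of same-numbered libraries correlated at 0.126, -0.118 and -0.0893, and the block took the calls over all genes from 2121 higher and 1515 lower to 24 and 9. The highest correlation for the YT-AKO-labelled libraries was with the same number in 1 of 3 cases. With block, or block and length correction, 0 of the 8 genes were called higher, 0 lower, and 0 in each pathway list by edgeR, while at an unadjusted p under 0.05 the block left *Wwtr1* higher and *Yap1* lower among the 8.

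Of the 8 genes, 0 were called higher with library totals and 2 with either length correction, and with 1 library left out the numbers ran from 0 to 1 higher and from 0 to 2 lower. In the Hippo cascade 11 genes were called, 5 with the length correction, 6 when YT-AKO 2 was left out too and 0 to 14 with 1 library left out. Of the targets 5 were called, 2 with the length correction and 0 to 6 with 1 library left out. Of the other partners 2 were called, 4 with DESeq2, 5 with library totals and 0 to 4 with 1 library left out. Over all genes, calls were 1137 higher and 2828 lower with library totals, 1692 and 763 with the length correction, and 704 and 528 without YT-FF 3. DESeq2 called 3031 and 2392.

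The log2 difference in the summed level of *Yap1* and *Wwtr1* was -0.054 in TPM against 0.56 in FPKM, and 0.47 to 0.66 with 1 library left out. That of summed *Tead1* to *Tead4* was 0.05, -0.56 in TPM and -0.17 to 0.19 with 1 library left out. The ratio of *Yap1* to *Wwtr1*, the share of *Tead1* and the ratio of coactivators to TEAD kept their direction in all 8 alternatives. Some of these could not change them. TPM scales all genes of a library by a common factor, so the differences were the same as in FPKM (-1.88, 4.41 percentage points and 0.54). In CPM the difference in the ratio of *Yap1* to *Wwtr1* was likewise fixed at -1.88. With 31 to 80 counts per library, depth limits *Tead4* most. Where a library was left out, the spread was pooled over the remaining 5.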
